A study of Mus musculus with 5 samples.

Results

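The gene body of Camk1d was examined for CpG methylation in mouse sperm. The gene lies on chromosome 2 from 5293457 to 5714860 (mm10, 421 kb), and was taken with 1 kb either side, from 5292457 to 5715860. It was chosen because one 1000-bp tile in it, which holds a cluster of CpGs from 5379102 to 5379354, had one of the smallest p-values of the genome between young and old sperm. Values of the ages in this gene are therefore a description and carry no test. Of the region's CpGs 2509 were listed in 1 library or more, and 202 of them (8.05%) were common CpGs, with 5 or more reads on both strands together in each of the 5 libraries. Over the genome this held for 2255866 of 13063725 CpGs (17.3%). The common CpGs of the region filled 25 tiles with 3 or more of them, of 321659 such tiles in the genome.

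The study compared whole-genome bisulfite sequencing of sperm that swam out of the cauda epididymis of C57BL/6 mice at 2 months of age (young, 3 libraries) and at 18 months (old, 2 libraries). Bisulfite turns unmethylated C into T, so the share of reads that still show C is the methylation level. No treatment or genotype beyond the strain is named. Whether the libraries stem from different mice is not stated either, so a p-value measures only the spread between these libraries. Their reads over the listed cytosines summed to between 67774094 and 97769462. Library values are given below in the order of replicates 1, 2 and 3 for young and 1 and 2 for old sperm.

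As a check of the cell type, the measured ends of the paternally imprinted genes H19 and Rasgrf1, which are methylated in sperm, averaged 94.7% to 100% in the libraries. These were the 2 measured of 4 listed genes. The median pooled level of all tiles was 94.4%, so such values do not single out sperm. Of the 9 maternally imprinted genes the less methylated end averaged 58.6% to 61.7%. Peg3, Plagl1, Nnat and Kcnq1ot1 had 0% to 43.3%, but Snrpn, Mest, Peg10, Zrsr1 and Inpp5f had 67.7% to 100%. These windows were set at gene ends, and which of them overlap the control regions was not examined. Neither the paternally nor the maternally imprinted genes give a clear check of the cell type. The ends of 3 leukocyte genes averaged 71.9% to 85.3%, and those of 4 epididymal genes 76.5% to 90.1%. Their members differed. Adam7 ran from 56.5% in young replicate 3 to 84.0% in young replicate 2, on 225 reads or more, and Defb1 from 96.3% to 98.3%. Cd3e ran from 40% to 74.3%, and it and Cd68 had as few as 5 reads in a library. These averages give no clear check for other cells.

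Camk1d encodes calcium/calmodulin-dependent protein kinase ID, a serine/threonine kinase that is switched on when calcium-loaded calmodulin binds it and an upstream CaM kinase kinase phosphorylates it. It is known from granulocytes and neurons, where it takes part in calcium signalling. In sperm most of the genome outside CpG-rich promoters is densely methylated, and mature sperm transcribe little or nothing. Gene bodies are thus mostly methylated in this cell type, while CpG-rich starts are mostly free of methylation.

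The RefSeq promoter windows used here (GRCm38.p6) give Camk1d 2 starts on the minus strand. The first is at 5714762, inside the gene's listed end at 5714860, so it is the first of these 2 starts only. Their promoter windows, 250 bases before to 50 after the start, are shown because the starts differ in CpG content. In both, capitals mark each CG. The window of the first start lies at chr2:5714713-5715012 and that of the second at chr2:5675997-5676296.
First start: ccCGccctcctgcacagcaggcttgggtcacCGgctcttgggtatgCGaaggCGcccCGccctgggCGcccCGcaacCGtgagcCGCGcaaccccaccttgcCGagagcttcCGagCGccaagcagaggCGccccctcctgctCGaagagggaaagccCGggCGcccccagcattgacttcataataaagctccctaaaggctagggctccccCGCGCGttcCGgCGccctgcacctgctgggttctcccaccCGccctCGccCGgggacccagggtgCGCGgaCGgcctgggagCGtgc
Second start: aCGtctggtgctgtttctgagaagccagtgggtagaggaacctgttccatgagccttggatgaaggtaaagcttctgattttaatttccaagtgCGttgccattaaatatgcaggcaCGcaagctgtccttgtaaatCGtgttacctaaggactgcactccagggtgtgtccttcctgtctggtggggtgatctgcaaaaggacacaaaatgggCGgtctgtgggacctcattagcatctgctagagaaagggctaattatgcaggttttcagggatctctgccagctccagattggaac

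The first window held 29 CG and was 71.3% G or C. The second held 5 CG and was 48.7% G or C. Of 32851 promoter windows in the RefSeq table, 94.6% held a CG (on both strands alike), the median number was 7, and 12.9% held 29 or more. None of the 29 CpGs of the first window was listed in a library. The nearest listed CpG lay 447 bp from the start.

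Around the first start, outside this window, the CpGs that were read were almost free of methylation. Within 2 kb of the start 20 CpGs were listed in 1 library or more, and 2 of their 168 reads were methylated (1.19%). Young replicate 1 had 2 methylated of 98 reads, and young replicate 2 had 0 of 27, which allows up to 11.1%. Old replicate 1 had 0 of 20 (up to 15.0%) and old replicate 2 had 0 of 23 (up to 13.0%). Young replicate 3 listed none. These limits treat each read at each CpG as separate. The reads lay on 5, 4 and 4 CpGs in young replicate 2 and old replicates 1 and 2. A read that covers several CpGs is counted at each, so the true limits may be higher. No difference between the ages was detectable at this depth. At the second start the 5 CpGs were read in 3 libraries and were mostly methylated, with 10 of 11 reads in young replicate 2, 13 of 21 in young replicate 3 and 5 of 5 in old replicate 2.

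Away from both starts the gene was densely methylated in every library. Outside the tile and its 5-kb flanks, the 182 common CpGs were at 93.8%, 95.5% and 92.3% in the young libraries, and the old ones had 94.2% and 94.8%. The young libraries enclosed the old ones. Mean methylation was 93.9% ± 1.58 for young sperm (SD, n = 3) and 94.5% ± 0.402 for old sperm (SD, n = 2). The difference of 0.634 points was smaller than the spread among the young libraries, and without young replicate 3 it was -0.146 points. With every CpG that a library listed outside that stretch, 2435 in all, the means were 92.9% ± 1.08 and 93.1% ± 1.22, on 5688 to 9592 reads per library.

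One short cluster of CpGs was less methylated than this body in all 5 libraries. Its 19 common CpGs, at chr2:5379102-5379354 (mm10), are all the common CpGs of their tile and span 253 bp. They lie 335.5 kb past the first start in the direction of transcription and 85.8 kb from the other end of the gene, and no other RefSeq gene covers them. Exons and introns are not in the annotation used here. The young libraries were at 55.5%, 61.4% and 48.8%, and the old ones at 75.6% and 83.8%. Both old libraries were above all young ones. Other short runs, described further on, had lower pooled levels, most of them not read in every library.

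Averaged by age, the cluster was at 55.2% ± 6.31 in the young (SD, n = 3) and 79.7% ± 5.79 in the old libraries (SD, n = 2), 24.5 points apart. The gap between the lowest old and the highest young library was larger than either SD, in a tile chosen by this contrast. In the 24 other tiles of Camk1d the pooled level lay between 83.4% and 98.9% with a median of 95.7%, and in 22 of them it was above 90%.

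**Figure D1:**
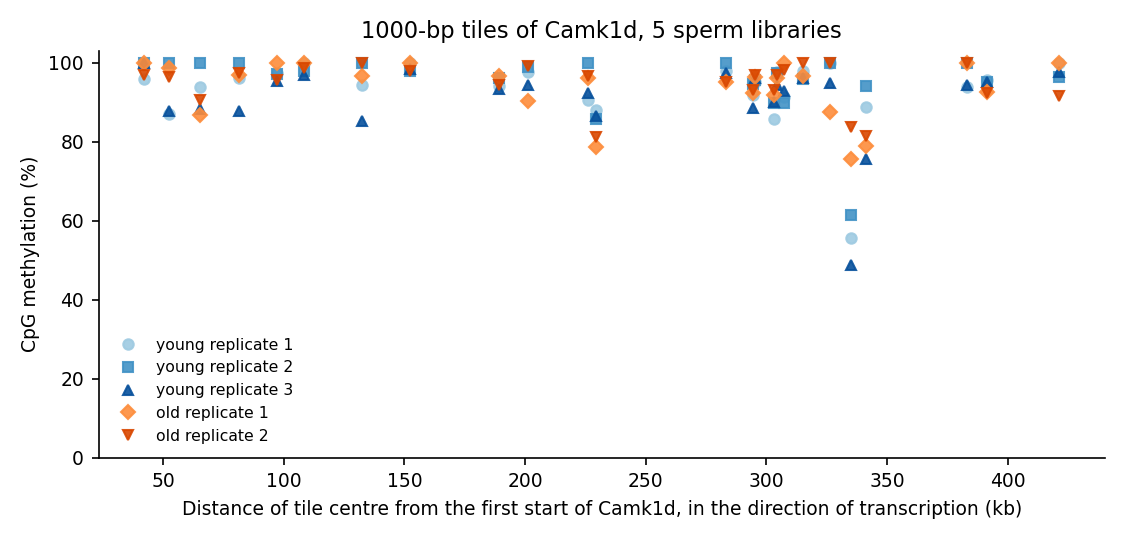
CpG methylation of the 25 tiles of Camk1d in percent (vertical axis) against the distance of the tile centre from the first start in kb (horizontal axis), 1 point per library. One tile, near 335.5 kb, lies at 48.8% to 61.4% in the young and 75.6% to 83.8% in the old libraries. The pooled level of each other tile is 83.4% or more. Single libraries of other tiles go as low as 75.6% in young replicate 3, 78.7% in old replicate 1 and 81.2% in old replicate 2. Those old values lie within the old range of the cluster.

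Within the cluster the CpGs of a library had similar levels. They ran from 47.1% to 64.0% in young replicate 1, from 52.2% to 67.3% in young replicate 2 and from 38.5% to 61.9% in young replicate 3. For old replicate 1 the range was 66.0% to 88.2%, and for old replicate 2 it was 75.0% to 87.3%. At each of the 19 CpGs both old libraries were above all 3 young ones, with a difference of the means of 20.1 to 35.8 points. Over all common CpGs of the genome 5.08% had this order of the libraries. The 19 CpGs share reads and the tile was chosen by this contrast, so they are not 19 separate observations.

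The order of the ages held along the cluster. Its parts belong to the tile chosen by this contrast, so this is no separate support. The first 7 CpGs, up to 5379198, were at 52.8%, 58.6% and 43.1% in the young libraries and at 78.3% and 81.7% in the old. The last 12 CpGs had 56.5%, 62.4% and 51.0%, against 74.8% and 84.7%. Of the 19, the first CpG had the fewest reads in each library, 14 to 33.

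The deepest CpG, at 5379329, shows the precision that single reads give. Young replicate 1 had 24 methylated of 51 reads (47.1%, Wilson 95% interval 34.1% to 60.5%), young replicate 2 had 34 of 57 (59.6%, 46.7% to 71.4%) and young replicate 3 had 18 of 38 (47.4%, 32.5% to 62.7%). Old replicate 1 had 39 of 52 (75.0%, 61.8% to 84.8%) and old replicate 2 had 67 of 83 (80.7%, 71.0% to 87.8%). The interval of old replicate 1 overlaps those of young replicates 2 and 3, and that of old replicate 2 overlaps that of young replicate 2. The intervals cover counting error only. The sums of 566 to 1348 reads per library over the cluster count a read once for each CpG it covers.

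**Figure D2:**
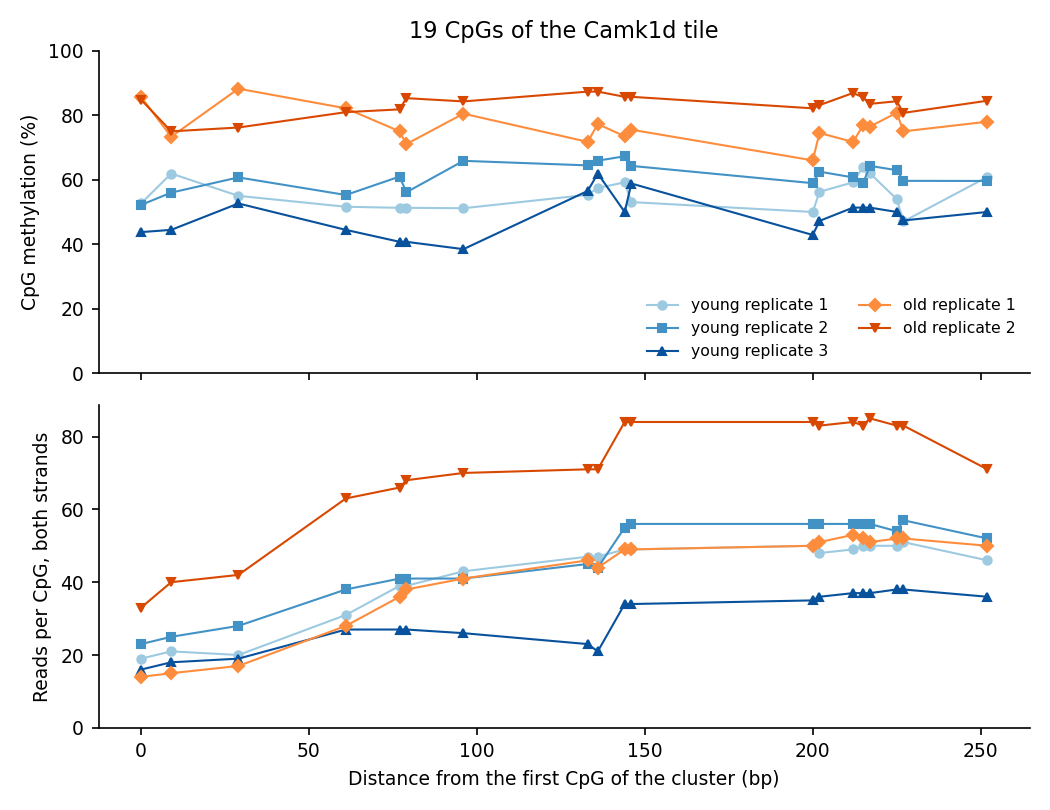
Methylation in percent (upper panel) and reads per CpG on both strands (lower panel) of the 19 CpGs, against the distance in bp from the first CpG of the cluster, with 1 line per library. The old libraries lie above the young ones at each CpG, and old replicate 2 has the most reads at each.

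Each strand of the cluster showed the same order of the ages. The tile was chosen by this contrast with the strands summed, so this is a description. On the plus strand the young libraries had 49.4%, 57.4% and 63.1% and the old ones 85.6% and 87.9%, on 139 to 428 reads. On the minus strand the values were 57.2%, 62.6% and 42.1% for young and 73.5% and 82.0% for old sperm, on 387 to 920 reads. The difference of the group means was 30.1 points on the plus strand and 23.8 points on the minus strand. Young replicate 3 was the highest young library on the plus strand and the lowest on the minus strand, 21.0 points apart, so the order among the young libraries was not shared by the strands. The minus strand gave 68.2% to 82.4% of the reads of the cluster.

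Read depth at the cluster differed between libraries, also within an age. Coverage per CpG was 42.0, 46.3 and 29.8 reads in the young libraries, and the old ones had 41.5 and 70.9 reads. Relative to the mean over all common CpGs of the library this was 1.89, 2.15 and 1.06 for young and 1.64 and 3.13 for old sperm. Old replicate 2 was the highest, and old replicate 1 lay within the young range. The mean relative depth was 1.70 ± 0.570 (SD, n = 3) and 2.38 ± 1.05 (SD, n = 2). The tile was not chosen by a difference in depth, but its p-value depends on the number of reads, so depth was not free of the choice. A two-sided exact permutation test of relative depth over 10 splits gave p = 0.5. With 3 libraries against 2 no p under 0.1 is possible, so this does not show that the depths were alike. Without old replicate 2 the difference of 0.684 became -0.0593. The least methylated library, young replicate 3, had the lowest relative depth, and the most methylated, old replicate 2, the highest. The part of depth in the methylation difference was not tested.

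**Figure D3:**
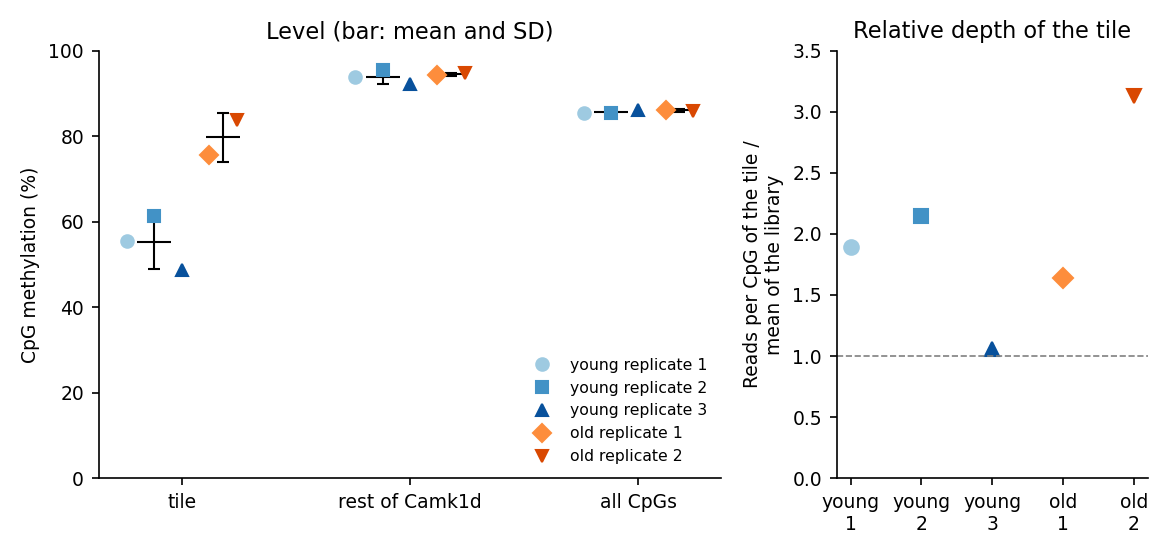
Left, methylation in percent of the tile, of the rest of Camk1d and of all common CpGs of the genome, 1 point per library, with the mean and SD of each age as black bars; right, reads per CpG of the tile divided by the mean of the library. The tile has the young libraries at 48.8% to 61.4% and the old ones at 75.6% and 83.8%, and relative depth runs from 1.06 to 3.13.

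Few CpGs next to the cluster were read. The 4 other listed CpGs of the tile had 91.7%, 83.3%, 94.1% and 72.7% in young replicates 1 and 2 and old replicates 1 and 2, on 6 to 22 reads, and none was listed in young replicate 3. This was above the cluster in the first 3 of these libraries and below it in old replicate 2. Of the 4, the CpG at 5379052, 50 bp before the first, had 25 of 32 pooled reads methylated (78.1%), and that at 5379037 had 11 of 13. Those at 5379406 and 5379408, just past the end, had 6 of 6 each in old replicate 1, which alone listed them. From 599 to 209 bp before the cluster, 6 CpGs were listed in 1 or 2 libraries each, with 80% to 100% of 5 to 11 pooled reads methylated. In the 5-kb flanks outside the tile, 51 CpGs were listed in 1 library or more but only 1 in all 5.

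The flanks differed from each other in the order of the ages. The CpGs of the tile outside the cluster are counted here too. On the side of lower coordinates, 29 CpGs had 93.0%, 96.9% and 92.3% in the young libraries against 87.5% and 82.2% in the old, on 24 to 104 reads. There both old libraries were below all young ones. On the other side, 26 CpGs had 100%, 97.3% and 67.7% against 94.7% and 93.5%, on 10 to 114 reads, and the ages overlapped, with young replicate 3 apart from the rest. The mean of old minus young was -9.22 points on the first side and 5.82 on the second. The libraries do not list the same CpGs in these flanks, so their levels are not matched site by site.

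The other tiles of Camk1d had smaller differences than the cluster. Among the 24, 14 were higher and 10 lower in old sperm, where 52.5% of all tiles were higher. The differences ran from -6.79 to 7.84 points with a median of 0.989, and 0 differed by 10 points or more, against 2.54% of all tiles. The old libraries were above all young ones in 3 of them, against 8.82% of all tiles, and below all young ones in another 3, against 8.14%. Within an age, the libraries of a tile spanned 0.652 to 18.5 points in young and 0 to 12.5 points in old sperm.

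In the fit over all 321659 tiles, 0 of the 25 tiles of Camk1d were called, and 0% of all tiles (quasi-binomial model with moderated dispersion, where a call needs an adjusted p under 0.05 and 10 points or more). limma on the log2 odds also called 0 tiles, in the gene and in the genome. An unadjusted p under 0.05 was found for 2 of the 25 tiles, the cluster among them, against 2.58% of all tiles. By limma it was found for 3 of 25, against 4.29% of all tiles. Nothing is read from these counts, since the gene was chosen by the contrast. Under 4 other settings 1 tile of Camk1d was called. Of all tiles, 33 (0.0103%) were called without young replicate 2 and 104 (0.0323%) without young replicate 3. With the replicate number as a block 272 (0.0846%) were called, and 714 (0.222%) in the binomial model that ignores the spread between libraries. The block leaves out young replicate 3, whose number no old library shares, so it is not separate from the setting without that library.

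Of the other tiles, the least methylated was that from 5373001 to 5374000, the nearest to the cluster on the side of the transcript's end. Its 6 CpGs had 88.8%, 94.1% and 75.6% in the young libraries against 78.8% and 81.3% in the old, on 107 to 205 reads. The ages overlapped, with young replicate 3 lowest. The tile from 5485001 to 5486000 had 88.0%, 85.7% and 86.5% against 78.7% and 81.2%, on 47 to 74 reads. Here both old libraries were below all young ones, the opposite order to that of the cluster.

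The tile from 5411001 to 5412000, with 8 CpGs, had 85.7%, 89.8% and 90% in the young libraries against 91.7% and 93.1% in the old, on 157 to 240 reads. The ages did not overlap, and the mean differed by 3.92 points with a young SD of 2.42. The tiles from 5649001 and from 5420001 had pooled levels of 91.7% and 92.1% and overlapping ages. The tile that holds the transcript's end of the gene, from 5293001 to 5294000, had 100%, 96.3% and 97.5% against 100% and 91.7% on 24 to 48 reads, and the ages overlapped. At the first start no tile had enough common CpGs.

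Outside the cluster and its flanks, 9 tiles had 50 reads or more in every library. The largest positive difference of old minus young among them was 5.89 points, in the tile from 5662001 to 5663000, with 86.9%, 100% and 87.8% against 98.6% and 96.3%. Young replicate 2 was above both old libraries there. The next were 3.92 points from 5411001 and 1.80 points from 5399001. The largest negative differences were -6.12 points from 5373001, -2.13 points from 5513001 and -0.119 points from 5410001. Of these 6 tiles, only that from 5411001 had ages that did not overlap.

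Along the gene in steps of 50 kb from the first start, with every listed CpG, 7 of the 9 windows were between 90.9% and 97.2% in both age means. The window from 300 to 350 kb, which holds the cluster, had 78.1%, 79.2% and 77.2% in the young libraries against 84.6% and 87.5% in the old. Without the tile the same window had 92.5%, 94.8% and 88.0% against 90.3% and 91.3%, and the ages overlapped. The difference of 7.89 points in that window was -0.923 without the tile. The window from 200 to 250 kb had 89.2%, 86.7% and 89.2% for young sperm, with old replicate 1 at 82.4% and old replicate 2 at 93.9%, below and above all young libraries.

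Several further short runs of low CpGs were found, defined after the data were seen as 3 or more CpGs under 50% on 10 or more pooled reads with gaps of 500 bp at most. From 5483580 to 5483682, where the noncoding gene Gm36853 overlaps Camk1d, 9 CpGs had 24 of 158 reads methylated (15.2%). The young libraries had 2 of 35, 6 of 43 and 4 of 15, old replicate 1 had 12 of 65, and old replicate 2 listed none. This run lies in the window from 200 to 250 kb, where the old libraries were far apart. Also in Gm36853, 3 CpGs from 5484897 to 5485079 had 46 of 127 reads methylated. Outside it, 3 CpGs from 5480014 to 5480240 had 3 of 34, and 3 from 5364352 to 5364499 had 17 of 51. Close to the first start, 12 CpGs from 5713212 to 5713554 had 1 of 113. Except for the run from 5484897, these were not read in all 5 libraries, and the ages were not compared in them.

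The cluster was also set beside tiles of like make-up in the genome. Its 19 common CpGs compare with a median of 4 per tile, and 0.360% of tiles had as many. The pooled level of 68.2% compares with a median of 94.4%. Reads per CpG, summed over the libraries, were 230.5 against a median of 81.5, and 10.04% of tiles had as many. Most tiles were read mainly from 1 strand, with a median of 97.5% of reads on the deeper strand, where the cluster had 74.2%.

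Of other tiles of its level, 1096 were within 5 points of its pooled level and had 200 reads or more in every library. Their median difference was 0.806 points, with a 5th to 95th percentile of -5.37 to 6.47 points. Of these, 6 were higher and 5 lower in old sperm by 10 points or more, and 0 were higher by as much as the cluster. Among 500 other tiles with 15 CpGs or more and a level of 40% to 80%, 20 were higher and 14 lower by 10 points or more, and 0 were higher by as much. Among all 34081 tiles with 200 reads or more in every library, 1 was higher in old sperm by as much, the cluster's own tile. Among all 321659 tiles, most of them with fewer reads, 77 were higher by as much. The tile was chosen as an extreme of this contrast, so its place is a description.

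**Figure D4:**
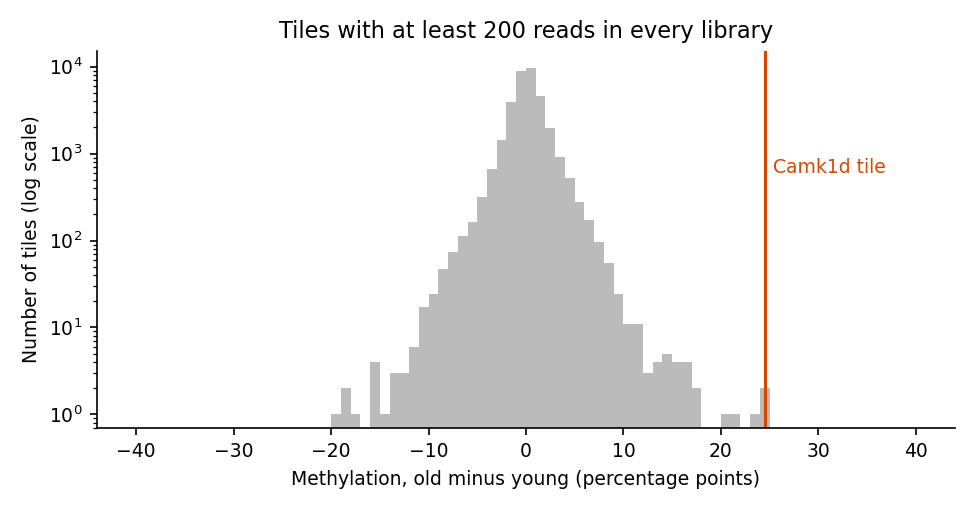
Number of tiles (log scale, vertical axis) by the difference of the mean methylation of old minus young sperm in percentage points (horizontal axis, 1-point bins), for 34081 tiles with 200 reads or more in every library. The line marks the Camk1d tile at 24.5 points, at the upper end of the distribution.

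Likeness of pattern was measured as the root mean square difference of the 5 library values from those of the cluster, over tiles in other genes with 200 reads or more in every library. The nearest was a tile in Zfp444, a zinc finger gene (chromosome 7, 6184001 to 6185000), 9.03 points away, with 60.3%, 56.6% and 54.2% for young and 65.03% and 69.0% for old sperm. Next came tiles in Gm15984 (chromosome 5, 74719001 to 74720000), 9.97 points away, and in Gm40446 (chromosome 12, 77177001 to 77178000), 10.02 points away. The last were in P2rx7, which encodes an ATP-gated ion channel (chromosome 5, 122649001 to 122650000), 10.03 points away, and in Tmem30c (chromosome 16, 57269001 to 57270000), 10.06 points away. Their own differences of old minus young were 6.47 to 9.96 points, so the patterns of these 5 were alike only in part. They were picked for closeness to values that are higher in old sperm, so the choice favoured this direction.

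With the cluster included, the whole gene region had 85.6%, 87.2% and 86.6% in the young libraries against 90.4% and 91.5% in the old. The cluster gave 13.1% to 30.1% of the reads of the common CpGs. The pooled level of 88.4% compares with a median of 93.0% over 583 gene regions of 300 kb or more, Camk1d among them, of which 70 were lower. The difference of 4.498 points was exceeded in 4 of these regions, and their median was 0.126.

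Other genes of the pathway were described by their whole regions, each gene with 1000 bp either side and 10 common CpGs or more. The list held 19 genes of calmodulin, the CaM kinases, their upstream kinases and their phosphatases, all of which matched the RefSeq table, and besides Camk1d 9 were measured. None of the 9 passed the test over 16512 gene regions, and 0% of all regions did (quasi-binomial model with moderated dispersion, lowest adjusted p = 0.999678). An unadjusted p under 0.05 was found for 0 of the 9, against 1.39% of all regions, and limma also called 0 of them, with an unadjusted p under 0.05 for 2 of the 9, against 2.33% of all regions. Of the 9, 2 were higher and 7 lower in old sperm, where 54.2% of all regions were higher. Their median difference was -0.871 points against 0.104 over all regions.

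Among the kinases closest to Camk1d, Camk1, which encodes the alpha isoform of CaM kinase I, had 98.0%, 96.6% and 95.4% in the young libraries against 92.3% and 92.0% in the old, on 149 to 174 reads. Camk1g, which encodes the gamma isoform, had 78.1%, 79.1% and 78.9% against 70.8% and 76.9%, on 641 to 811 reads. In both the old libraries were below the young ones, with differences of -4.56 and -4.81 points that did not pass the test. Calm2, one of the genes for calmodulin itself, had the largest difference of the list, -8.79 points, with 86.2%, 91.8% and 93.0% against 85% and 78.0% on 80 to 114 reads, and did not pass either.

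The upstream kinase gene Camkk2 was at 83.9% ± 5.00 for young (SD, n = 3) and 87.9% ± 2.71 for old sperm (SD, n = 2), and the ages overlapped. Of the genes for CaM kinase II subunits, Camk2b had means of 95.2% and 94.3%, Camk2d 92.1% and 92.0%, and Camk2g 38.9% ± 5.37 and 34.7% ± 0.774, the lowest level of the list. Camk4 was at 93.0% and 93.2%, and Ppm1f, which encodes a CaM kinase phosphatase, at 97.3% and 96.5%. Old libraries were below all young ones in 4 of the 9, Camk1, Camk1g, Camk2g and Calm2, against 5.71% of all regions. In Camk2g the gap was narrow, with 35.7% in young replicate 2 against 35.3% in old replicate 1. The list was fixed with results of these data known, so nothing is read from this count.

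**Figure D5:**
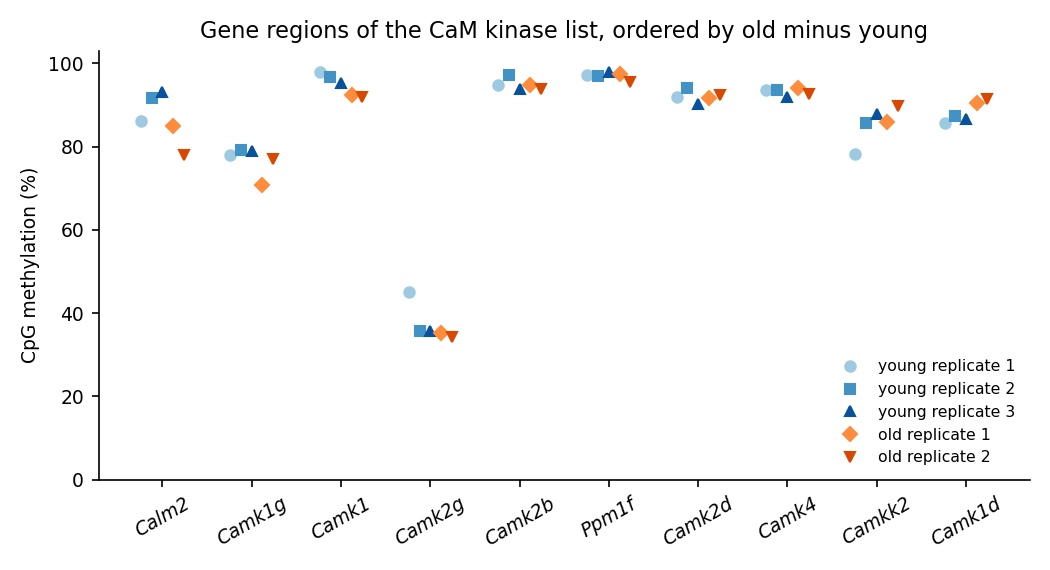
CpG methylation in percent (vertical axis) of the gene regions of Camk1d and of 9 further measured genes of the CaM kinase list, 1 point per library, ordered by the difference of old minus young. Camk1d, at the right, is at 85.6% to 91.5%, and Camk2g is the least methylated.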

How the data were processed

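Sperm DNA of 3 young (2 months) and 2 old (18 months) libraries was analysed, with groups from the ages in the labels. The submitters' processing notes name mm10 (GRCm38) and 3 tools, which the authors ran before they deposited their files: methylKit 1.4.0, Bismark 0.16.3, and Trim Galore 0.4.3 for trimming. How these were set, and how duplicate reads were treated, is not given in the sources used here. Per the file headers, the deposited coverage is a count of reads per cytosine and strand, and the deposited percent is the share of them read as C or T. Every listed cytosine had 5 reads or more, so shallower ones are missing, which favours well-read CpGs. Percent times coverage gave whole methylated reads for 100% of cytosines, within the rounding of the listed percent.

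Strands were summed per CpG. CpGs with 5 or more reads in each of the 5 libraries were summed over tiles of 1000 bp with 3 or more of them on chromosomes 1 to 19, X and Y, and over gene regions, with no upper limit of coverage. Of 73991 listed CpGs in RefSeq promoter windows, 99.99% fell on the letters CG. Tiles and regions were fitted with a quasi-binomial model whose dispersion was moderated by squeezeVar of limma 3.58.1 (R 4.3.3) and not let under 1, with Benjamini-Hochberg adjustment over all features. The prior of the dispersion came from features whose expected binomial variance was 2 or more, because on simulated data with 200 changed tiles the prior from every tile missed most of them. This departs from the first design. The changed tiles of the simulation were all well read and of intermediate level. On the deposited data the prior used and the prior from every tile both called 0 tiles. Values were computed and drawn in Python 3.11.15 (pandas 2.3.3, numpy 2.4.6, matplotlib 3.10.9, scipy 1.17.1).

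Members, lists and tests were chosen with earlier results of these data known. Named in Camk1d were the chosen tile and its CpGs, tiles at the gene's ends, the 5 least methylated other tiles, and the 3 largest positive and negative differences among tiles with 50 reads or more in every library. Outside Camk1d the rule named the 5 tiles most alike and the 3 members of the CaM kinase list that differed most. Its other members, the runs of low CpGs, the flanks and the sets of like tiles were chosen after their values were seen. Alternatives covered the dispersion and its prior, limma, coverage limits (10 reads, 99.9th percentile), tile width (500 and 2000 bp), 5 or more CpGs per tile, the minimum difference, single strands, weighting, the set of CpGs, leaving out each library, and the replicate number.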

Additional observations from a re-analysis of the deposited data

How the results depend on the processing

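The difference at the Camk1d cluster kept its direction under each of its 13 alternatives, between 20.4 points (without old replicate 2) and 28.6 (without old replicate 1) with 1 library left out, and at 30.1 on the plus strand. Both old libraries lay above all young ones in this chosen tile, so leaving out 1 library could not reverse the direction. The limits of coverage and the tile widths kept nearly the same reads and gave 24.5 points each, so this is no separate support. The difference of the rest of the gene ran from -0.146 (without young replicate 3) to 1.43 points with 1 library left out, and the difference in relative depth from -0.0593 (without old replicate 2) to 1.43. Tiles called over the genome numbered 714 in the binomial model and 272 with the replicate number as a block, and 0 to 104 with 1 library left out: 33 without young replicate 2, 104 without young replicate 3 and 1 without old replicate 2. In Camk1d 1 tile was called in the binomial model, 1 with the replicate block, and 0 to 1 with 1 library left out, and 0 under the other alternatives. The cause was not tested. No gene region of the CaM kinase list was called under any of its 11 alternatives. Deviations of replicates with the same number had correlations across tiles of 0.0094 for number 1 and -0.0198 for number 2. The 2 old libraries deviate from their mean by equal and opposite amounts, so their correlations with a young library are forced to be opposite. Whether replicates were paired cannot be told from these values. With only 2 shared numbers the block leaves out young replicate 3, and it is no pairing by the design. A lone old library is given the spread of the young ones. Only 10 of the 25 tiles of Camk1d had at least 50 reads in every library, so smaller differences elsewhere in the gene could go unseen.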
